A study of Mus musculus with 10 samples.

Results

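The genes described here encode the constitutive proteasome, its assembly factors and its inhibitor Psmf1. They were taken from the gene count table of sorted mouse MC38 tumor cells as every protein-coding gene whose symbol begins with Psma, Psmb, Psmc, Psmd, Psmf or Psmg followed by a digit, leaving out the interferon-inducible subunits Psmb8, Psmb9 and Psmb10. This gave 42 genes out of 53379 in the table. They comprised 8 genes of the alpha ring and 8 of the beta ring, which together make the core, 6 ATPases and 11 non-ATPase subunits of the cap, 7 assembly factors, Psmf1 and Psmc3ip. Psmc3ip matches by its symbol alone: it encodes a partner of meiotic recombinases and is no proteasome subunit, and it is kept apart from the classes below.

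MC38 is a mouse colon carcinoma line of C57BL/6 origin. It was implanted into C57BL/6J mice on a high-fat diet or a control diet, and 21 days later the tumor cells were sorted as dTomato-positive and CD45-negative, where CD45 is the surface protein shared by leukocytes. Polyadenylated RNA was sequenced from 5 mice fed the high-fat diet and 5 mice fed the control diet, with 1 library per mouse. Both groups carried the same tumor line in the same strain, and the sources used here do not give the composition or duration of either diet or the age and sex of the mice.

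The proteasome degrades proteins tagged with ubiquitin. Its core is a barrel of stacked rings: the outer alpha rings form the gate and the inner beta rings hold the proteolytic sites, while the cap binds tagged proteins, removes the ubiquitin, unfolds the chain with its ring of ATPases and feeds it into the core. Dedicated chaperones build the rings and the cap, and in tumor cells the machine is known as a drug target and as a source of the peptides shown to T cells.

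The libraries held between 16513388 and 17154050 counts on the high-fat diet and between 17050797 and 18653705 counts on the control diet. A count of 3, used as the floor of detection, was worth between 0.159 and 0.183 CPM, the count scaled to library size. This floor covers counting error only. Of 6 epithelial markers, Krt8, Krt18, Krt7, Krt19 and Epcam lay at or near 0 in both groups. Each of these measured no more than 0.916 CPM on the high-fat diet and 1.72 CPM on the control diet. The other marker, Cdh1, was low but above the floor in every library. It measured 0.933 to 1.89 CPM on the high-fat diet and 1.08 to 2.27 CPM on the control diet. Little of an epithelial identity was thus visible at the RNA level. Genes that also mark fibroblasts and pericytes summed to 1051 to 1935 CPM on the high-fat diet and 1305 to 1790 CPM on the control diet. Most of this was Dcn, at 651 to 1280 CPM on the high-fat diet and 689 to 1268 CPM on the control diet, followed by Pdgfra and Pdgfrb. The others were far lower: in high-fat diet and control mice, Lum reached at most 27.6 and 38.6 CPM, Col14a1 2.08 and 3.09 CPM and Rgs5 0.357 and 0.739 CPM. Macrophage markers summed to 31.1 to 64.1 CPM on the high-fat diet and 60.6 to 399 CPM on the control diet, with control mice 3 and 4 highest at 356 and 399 CPM. These are bulk libraries, in which fewer cells of a type and less RNA per cell cannot be told apart.

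RefSeq start-site windows were available for 34 of the 42 genes, with 250 bases before and 50 bases after the start (build GRCm38.p6). Those of Psmb5 and Psmb6, which encode catalytic subunits of the core, of Psmd4, the ubiquitin receptor of the cap, and of Psmg1, an assembly chaperone, are shown as examples of the motifs found in the core, the cap and the assembly genes. They were chosen after the motif matches were seen. Capitals mark matches, on either strand, to TGACNNNGC, the core of the antioxidant response element, to CCAAT, the NF-Y box, and to CCGGAAG, the core of ETS factor sites. No capitals overlap between motifs in these windows. Psmb5 lies at chr14:54617946-54618245 on the minus strand, Psmb6 at chr11:70525107-70525406 on the plus strand, Psmd4 at chr3:95042565-95042864 on the minus strand and Psmg1 at chr16:95990911-95991210 on the minus strand.
Psmb5: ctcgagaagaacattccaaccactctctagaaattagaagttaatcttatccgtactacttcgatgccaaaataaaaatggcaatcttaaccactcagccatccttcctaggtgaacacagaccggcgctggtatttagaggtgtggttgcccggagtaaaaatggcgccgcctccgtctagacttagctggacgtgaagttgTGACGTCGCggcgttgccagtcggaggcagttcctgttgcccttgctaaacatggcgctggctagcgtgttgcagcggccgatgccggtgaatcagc
Psmb6: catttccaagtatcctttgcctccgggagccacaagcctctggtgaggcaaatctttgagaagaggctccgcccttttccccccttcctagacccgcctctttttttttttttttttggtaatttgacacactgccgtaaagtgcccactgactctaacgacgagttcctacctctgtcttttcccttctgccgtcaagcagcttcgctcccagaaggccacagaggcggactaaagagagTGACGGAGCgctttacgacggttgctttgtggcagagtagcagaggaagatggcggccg
Psmd4: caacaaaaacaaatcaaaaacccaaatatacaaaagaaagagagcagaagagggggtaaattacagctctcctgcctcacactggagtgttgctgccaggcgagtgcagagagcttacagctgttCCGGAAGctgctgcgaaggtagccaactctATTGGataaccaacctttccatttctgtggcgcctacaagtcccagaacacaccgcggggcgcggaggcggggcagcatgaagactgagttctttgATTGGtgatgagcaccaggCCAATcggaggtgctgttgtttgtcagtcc
Psmg1: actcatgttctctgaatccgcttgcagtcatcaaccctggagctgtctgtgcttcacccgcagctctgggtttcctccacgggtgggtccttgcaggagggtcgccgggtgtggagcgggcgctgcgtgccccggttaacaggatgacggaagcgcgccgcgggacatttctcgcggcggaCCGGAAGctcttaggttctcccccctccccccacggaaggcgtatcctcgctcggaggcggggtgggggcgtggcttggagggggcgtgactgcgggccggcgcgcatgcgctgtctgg

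The ETS core motif was counted in the windows of most cap genes. CCGGAAG stood in those of 9 of 14 cap genes, among them Psmc1, Psmc6, Psmd2, Psmd4 and Psmd11, of 1 of 12 core genes (Psma6) and of 2 of 6 assembly genes (Psmg1 and Psmg3). It occurred in 38.9% of the 36 member windows, where some genes have more than one window, and in 8.86% of all 32851 windows of the same length. The member share includes Psmc3ip, which holds the motif but is no proteasome subunit and belongs to none of these classes. TGACNNNGC was found for 5 members, Psmb5, Psmb6, Psmc6, Psmd12 and Psmd9, or 13.9% of member windows and 12.4% of all windows. CCAAT stood in 36.1% of member windows and 37.4% of all windows, and TATAAA in 8.33% of member windows and 13.6% of all windows. Both strands were searched in every case. A match describes letters in this window, and none of these shares was tested.

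No proteasome gene differed between the diets past the threshold. Of the 42 genes, 40 passed the filter on low counts. The other two were Psma8, a testis form of an alpha subunit with 6 counts over all 10 libraries, and Psmb11, the thymus form of a beta subunit with 7 counts. By quasi-likelihood testing in edgeR, with Benjamini-Hochberg correction over 14337 genes, 0 of the 40 had an adjusted p under 0.05, against 0.0628% of all genes tested (9 genes). At an unadjusted p under 0.05 the count was also 0, where 12.1% of all genes lay. DESeq2 and limma-voom each called 0 of the 40 members, against 2.2% and 0.0349% of all genes, and 0 members had an unadjusted p under 0.05 in either. It stayed at 0 in edgeR with the macrophage level as a covariate, against 1.35% of all genes. Without control mice 3 and 4 it was 0 as well, against 1.89%. The macrophage sums barely overlapped, at 31.1 to 64.1 CPM on the high-fat diet and 60.6 to 399 CPM on the control diet. A fit with that covariate can therefore hardly tell diet and macrophage level apart. In 0 of the 40 genes did the groups' CPM values not overlap, compared with 2.18% of all genes.

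The estimates themselves were small. The log2 change, high-fat diet minus control diet, ran from -0.11 for Psmd8 to 0.19 for Psma5, with standard errors of 0.06 to 0.15. Every 95% interval lay between -0.36 and 0.47 on the log2 scale, which is 0.779-fold to 1.39-fold. Such intervals leave room for changes of up to about that size in single genes. In simulated data of this design, the test recovered 52.0% of genes changed by 1.5-fold and 82.0% of those changed by 2-fold, over 14209 genes. The changed genes were drawn at random from all genes past the filter, so these shares are not those of the members. The median standard error was 0.085 over the members and 0.114 over all genes tested.

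**Figure D1:**
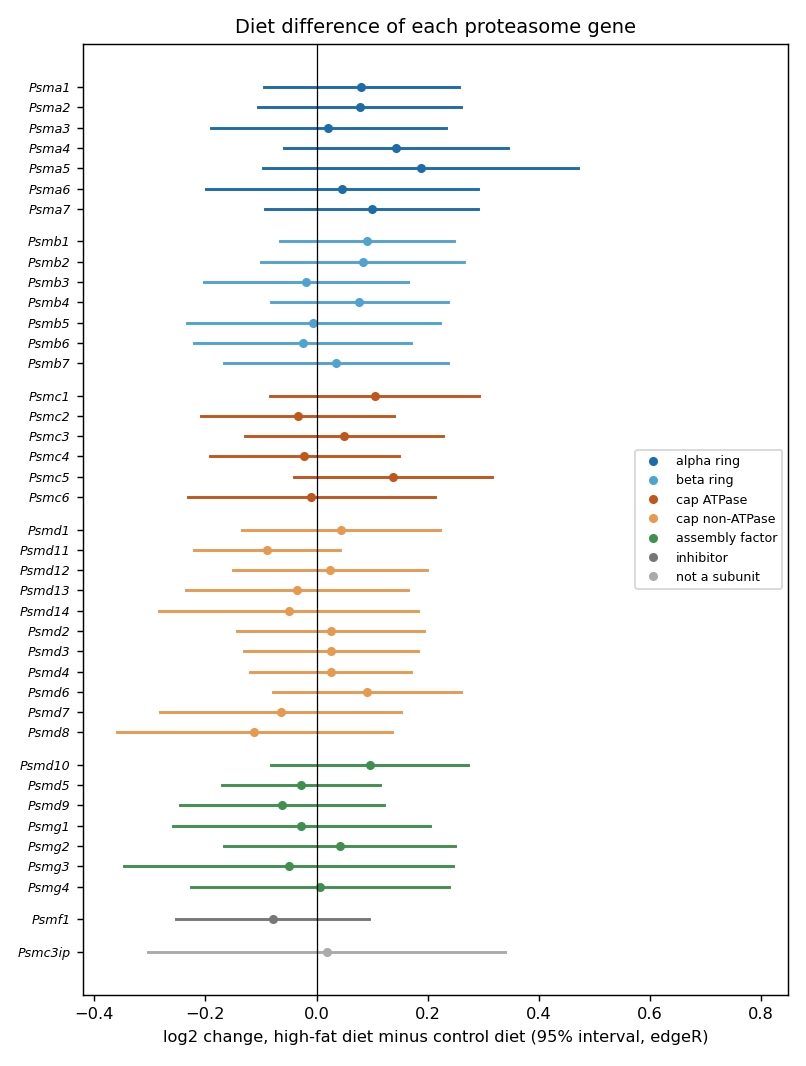
Log2 change of each of the 40 genes tested, Psmc3ip included (points, high-fat diet minus control diet) with the 95% interval from edgeR (lines), grouped and coloured by class. All 7 alpha ring points lie right of 0, between 0.02 and 0.19, and every interval in the plot crosses 0.

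The core, the cap and the assembly factors were compared by their medians, as a description with no test. The median log2 change was 0.08 over the 14 core genes tested, 0.02 over the 17 cap genes and -0.03 over the 7 assembly factors, against 0.01 over all genes. The classes' medians were thus 0.05 apart for core minus cap, 0.10 for core minus assembly and 0.05 for cap minus assembly. A positive estimate was found for 11 of 14 core genes, 9 of 17 cap genes and 3 of 7 assembly factors, and for 24 of the 40 members (60%), where 51.4% of all genes tested had one.

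The direction of the median over all members, the cap and the assembly factors changed with single mice, while the core median stayed positive, between 0.03 and 0.12, whichever single mouse was left out. Without high-fat diet mouse 5, 13 of the 40 members had a positive estimate, among them 9 core genes, 3 cap genes and 1 assembly factor, and the median over the members was -0.03. Without high-fat diet mouse 3, 32 members had a positive estimate, with 13 core genes, 14 cap genes and 4 assembly factors, and the median was 0.07. Without high-fat diet mouse 2 the count was 32 as well, with 5 assembly factors. Leaving out control mice 3 and 4 together gave 18 members with a positive estimate, 1 of them an assembly factor. With the macrophage level as a covariate the medians were 0.01 for the core, -0.03 for the cap, -0.06 for the assembly factors and -0.02 for all members, of which 18 of 40 were positive.

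In the alpha ring every tested member had a positive estimate, 7 of 7, and the median was 0.08. Psma4 (chr9:54950790-54958030), an alpha subunit, measured 78.0, 63.9, 57.1, 67.8 and 72.4 CPM in high-fat diet mice 1 to 5, against 56.8, 53.8, 63.3, 67.1 and 65.9 CPM in control mice 1 to 5. The groups overlapped, and 1 high-fat diet mouse lay below the control mean. The means were 67.8 ± 8.0 CPM on the high-fat diet and 61.4 ± 5.81 CPM on the control diet (SD, n = 5 each), and the log2 change 0.14 (SE 0.09; adjusted p = 0.599 in edgeR). Of its 50-base windows, 32.6% occur in another annotated gene, among them Gm6542, so reads may have been split or lost.

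Psma5 (chr3:108256926-108279974), another alpha subunit, had the largest estimate of the tested alpha genes and, on the high-fat diet, the widest spread of them. It measured 41.5, 30.9, 27.7, 39.7 and 49.0 CPM in high-fat diet mice 1 to 5 and 32.4, 31.9, 32.2, 34.5 and 34.8 CPM in control mice 1 to 5. The control mice lay close together, while the high-fat diet mice fell on both sides of them. The log2 change was 0.19 (SE 0.13; adjusted p = 0.630 in edgeR), 0.08 without high-fat diet mouse 5 and 0.28 without mouse 3, and 55.9% of its windows are shared with other loci. Psma6 (chr12:55384222-55418454), the alpha subunit with the highest level per kb of merged exons (Psma7 with the longest coding transcript as length), measured 145, 124, 117, 130 and 183 CPM in high-fat diet mice and 138, 143, 129, 120 and 149 CPM in control mice. High-fat diet mouse 5 was the highest of all, and the groups otherwise overlapped, and a log2 change of 0.05 (SE 0.11; adjusted p = 0.920 in edgeR). The other tested alpha genes, Psma1, Psma2, Psma3 and Psma7, had estimates of 0.02 to 0.10.

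The beta ring had 4 of 7 positive estimates, with a median of 0.04. The catalytic subunits were close to 0. Psmb5 (chr14:54614119-54618022), which carries the chymotrypsin-like site, measured 41.3, 31.4, 33.6, 36.6 and 44.3 CPM in high-fat diet mice and 40.5, 39.3, 33.3, 33.4 and 41.5 CPM in control mice. The groups covered nearly the same range, and a log2 change of -0.01 (SE 0.11; adjusted p = 0.987 in edgeR). Windows shared with another annotated gene made up 55.9%, with Gm3375 among the other loci. Psmb6 (chr11:70525367-70527858), with the caspase-like site, measured 142, 110, 105, 124 and 134 CPM in high-fat diet mice and 132, 122, 117, 117 and 138 CPM in control mice. Its highest and lowest values were both in high-fat diet mice, and the log2 change was -0.02 (SE 0.09; adjusted p = 0.945 in edgeR).

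Psmb7 (chr2:38588036-38644087), with the trypsin-like site, measured 106, 92.1, 84.7, 94.0 and 120 CPM in high-fat diet mice and 109, 97.2, 93.6, 90.9 and 93.9 CPM in control mice. Here too the extremes were high-fat diet mice 5 and 3, and the log2 change was 0.04 (SE 0.09; adjusted p = 0.924 in edgeR). Its exons overlap those of Nek6 on the other strand, and since the strand setting of the counting is not given, reads of such pairs cannot be told apart. Among the non-catalytic beta subunits, Psmb1 (chr17:15475021-15499751) averaged 160 ± 14.8 CPM on the high-fat diet and 150 ± 6.47 CPM on the control diet (SD, n = 5 each; log2 change 0.09, SE 0.07; adjusted p = 0.688 in edgeR). It measured 180, 148, 144, 159 and 171 CPM in high-fat diet mice and 143, 148, 157, 147 and 158 CPM in control mice. The groups overlapped, with high-fat diet mice 1, 5 and 4 above every control mouse. Psmb4 (chr3:94884093-94886961) measured 222, 192, 183, 204 and 231 CPM in high-fat diet mice and 203, 200, 186, 189 and 201 CPM in control mice. Its log2 change was 0.08 (SE 0.07; adjusted p = 0.756 in edgeR). High-fat diet mice 5 and 1 were the highest of all and mouse 3 the lowest. Psmb2 (chr4:126677630-126709714) measured 183, 154, 142, 166 and 196 CPM in high-fat diet mice and 160, 151, 164, 157 and 162 CPM in control mice, and the log2 change was 0.08 (SE 0.08; adjusted p = 0.770 in edgeR). Its control values spanned a far narrower range than its high-fat diet values.

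Of the ATPases of the cap, which unfold the substrate, 3 of 6 had a positive estimate, with a median of 0.02. Psmc5 (chr11:106256154-106263120) had the smallest unadjusted p of all members, 0.120. It measured 175, 158, 154, 158 and 204 CPM in high-fat diet mice and 150, 145, 155, 164 and 157 CPM in control mice. High-fat diet mice 5 and 1 lay above every control mouse and the others overlapped them. The means were 170 ± 21.1 CPM on the high-fat diet and 154 ± 7.02 CPM on the control diet (SD, n = 5 each), and the log2 change 0.14 (SE 0.08; adjusted p = 0.559 in edgeR). Psmc1 (chr12:100110154-100123405), whose tail helps to open the gate of the core, measured 105, 95.6, 97.3, 105 and 129 CPM in high-fat diet mice and 93.0, 93.2, 107, 95.1 and 106 CPM in control mice. High-fat diet mouse 5 stood apart at 129 CPM, and the log2 change was 0.10 (SE 0.09; adjusted p = 0.707 in edgeR), with 17.5% of windows shared. Psmc2, Psmc3, Psmc4 and Psmc6 had estimates of -0.03 to 0.05.

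Among the 11 non-ATPase subunits of the cap 6 estimates were positive, again with a median of 0.02. Psmd4 (chr3:95032694-95042614), a ubiquitin receptor, measured 190, 165, 170, 178 and 195 CPM in high-fat diet mice and 182, 178, 167, 168 and 186 CPM in control mice. The groups overlapped, and a log2 change of 0.03 (SE 0.07; adjusted p = 0.923 in edgeR). Psmd14 (chr2:61711694-61800376), the deubiquitinase that cuts the ubiquitin chain off the substrate, measured 113, 92.2, 88.8, 102 and 131 CPM in high-fat diet mice and 115, 120, 93.9, 104 and 113 CPM in control mice. Its log2 change was -0.05 (SE 0.11; adjusted p = 0.904 in edgeR). High-fat diet mouse 5 was the highest and mouse 3 the lowest of all, with the control mice in between. Psmd7 (chr8:107580381-107588464), which pairs with Psmd14, measured 201, 149, 146, 174 and 190 CPM in high-fat diet mice and 194, 178, 152, 190 and 186 CPM in control mice, with a change of -0.06 on the log2 scale (SE 0.10; adjusted p = 0.856 in edgeR).

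The scaffold subunits Psmd11 and Psmd6 had the smallest p-values among the non-ATPase subunits and pointed in opposite directions. Psmd11 (chr11:80428615-80473248) measured 103, 109, 97.7, 108 and 111 CPM in high-fat diet mice and 107, 109, 112, 115 and 119 CPM in control mice. The control values were the higher on average, with overlap between 107 and 111 CPM, and the log2 change was -0.09 (SE 0.06; adjusted p = 0.615 in edgeR). Psmd6 (chr14:14112174-14120984) measured 82.9, 73.3, 70.8, 80.0 and 91.1 CPM in high-fat diet mice and 71.8, 72.7, 81.8, 76.4 and 71.0 CPM in control mice. High-fat diet mice 5 and 1 were the highest of all, and the log2 change was 0.09 (SE 0.08; adjusted p = 0.714 in edgeR). Psmd8, the lid subunit with the lowest estimate (-0.11, SE 0.11), averaged 185 ± 30.0 CPM on the high-fat diet and 200 ± 24.7 CPM on the control diet (SD, n = 5 each).

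The assembly factors were measured at lower levels than most subunits. Psmd10 (gankyrin, chrX:140948429-140956728), a chaperone of the ATPase ring, measured 37.9, 30.0, 29.4, 34.7 and 35.7 CPM in high-fat diet mice and 30.3, 31.5, 33.2, 30.2 and 31.7 CPM in control mice. High-fat diet mice 1, 5 and 4 lay above the controls and mice 2 and 3 below them, and a log2 change of 0.10 (SE 0.08; adjusted p = 0.714 in edgeR). Psmd9 (chr5:123169413-123250131), another chaperone of that ring, measured 73.1, 62.9, 57.5, 64.4 and 71.8 CPM in high-fat diet mice and 69.4, 69.9, 64.1, 62.4 and 78.3 CPM in control mice. Its log2 change was -0.06 (SE 0.08; adjusted p = 0.835 in edgeR), and Gm26745 covers 25.5% of its exons on the other strand. Psmg1 (chr16:95979933-95990960), which with Psmg2 helps the alpha ring to form, measured 39.9, 30.1, 26.3, 34.0 and 39.6 CPM in high-fat diet mice and 33.3, 35.3, 34.3, 36.0 and 34.1 CPM in control mice. The control values lay within a narrow band that the high-fat diet mice straddled, and the log2 change was -0.03 (SE 0.11; adjusted p = 0.948 in edgeR). Psmd5, Psmg2, Psmg3 and Psmg4 had estimates of -0.05 to 0.04. Psmf1 (PI31, chr2:151715812-151744186), described as an inhibitor of the core in vitro, measured 72.5, 68.5, 61.9, 74.2 and 82.9 CPM in high-fat diet mice and 82.7, 74.6, 72.4, 72.2 and 78.5 CPM in control mice, with a change of -0.08 on the log2 scale (SE 0.08; adjusted p = 0.771 in edgeR). Psmc3ip averaged 18.5 ± 3.94 CPM on the high-fat diet and 18.2 ± 2.77 CPM on the control diet (SD, n = 5 each; adjusted p = 0.975 in edgeR), and overlaps Mlx on the other strand.

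The spread between mice was the larger on the high-fat diet for nearly every member. The SD of log2 CPM was larger on the high-fat diet than on the control diet for 39 of the 40 members (97.5%), against 58.9% of all genes tested. This held for 13 of 14 core genes, 17 of 17 cap genes and 7 of 7 assembly factors, and Psma3 was the exception, with an SD of 0.0669 on the high-fat diet and 0.171 on the control diet. The median SD over the members was 0.173 on the high-fat diet and 0.0697 on the control diet, and over all genes it was 0.189 on the high-fat diet and 0.161 on the control diet. Leaving out each mouse in turn left between 35 and 39 of the 40 members with the larger SD on the high-fat diet, the lowest counts coming without high-fat diet mouse 3 or 5. Without high-fat diet mouse 5 the share over all genes was 48.5%. The difference in spread was not tested, and since the genes share their 5 libraries the 40 values are not independent.

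**Figure D2:**
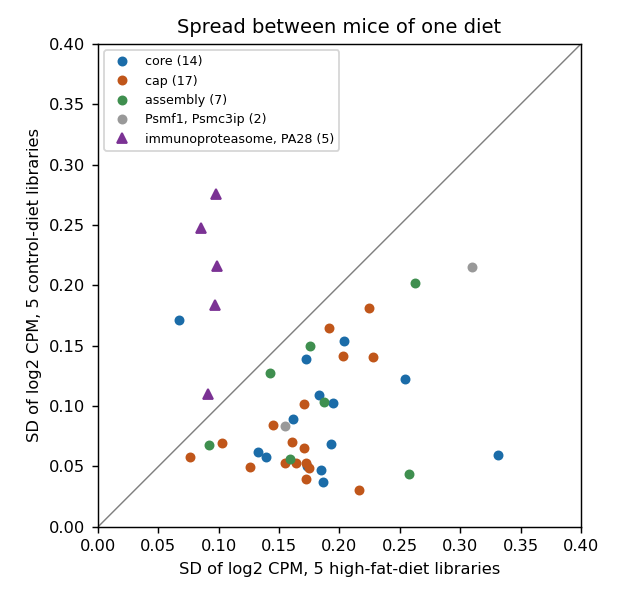
SD of log2 CPM over the 5 high-fat diet mice and over the 5 control mice for each of the 40 genes, with the line of equal spread; triangles are the 5 immunoproteasome and PA28 genes. All round points but Psma3 lie on the side where the high-fat diet mice spread more, with medians of 0.173 on the high-fat diet and 0.0697 on the control diet.

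The members moved together within single high-fat diet mice. Relative to each gene's mean over the 10 libraries, the median member lay at 0.11, -0.11, -0.16, -0.00 and 0.23 log2 units in high-fat diet mice 1 to 5, against 0.01, 0.01, -0.06, -0.03 and 0.01 in control mice 1 to 5. High-fat diet mice 5 and 1 were high, mice 2 and 3 low and mouse 4 near the mean, and the control mice kept within a narrower band. High-fat diet mouse 5 had 97.5% of members above their mean and mice 2 and 3 had 2.5% each, while control mice had between 30% and 57.5%. High-fat diet mouse 5 was the highest of its group for 30 of the 40 members (75%, against 28.1% of all genes tested), and mouse 3 the lowest for 30 (75%, against 24.6%).

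The core, the cap and the assembly genes each had the same high and low mice on the high-fat diet, though not in 1 order. The core's median deviation was 0.17, -0.08, -0.18, 0.03 and 0.23 log2 units in high-fat diet mice 1 to 5, against -0.01, -0.01, -0.08, -0.07 and 0.01 in control mice 1 to 5. For the cap it was 0.09, -0.11, -0.15, -0.02 and 0.25 in high-fat diet mice, against -0.03, 0.00, -0.03, -0.01 and 0.05 in control mice. The assembly factors gave 0.19, -0.10, -0.15, -0.03 and 0.14 in high-fat diet mice, against 0.05, 0.06, -0.07, -0.07 and -0.03 in control mice. In all 3 classes mice 1 and 5 were high and mice 2 and 3 low on the high-fat diet, with mouse 5 above mouse 1 in the core and the cap and below it in the assembly factors. In summed CPM, the members reached 4586 ± 517 on the high-fat diet and 4504 ± 101 on the control diet (SD, n = 5 each), with ranges of 4025 to 5309 on the high-fat diet and 4388 to 4660 on the control diet.

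**Figure D3:**
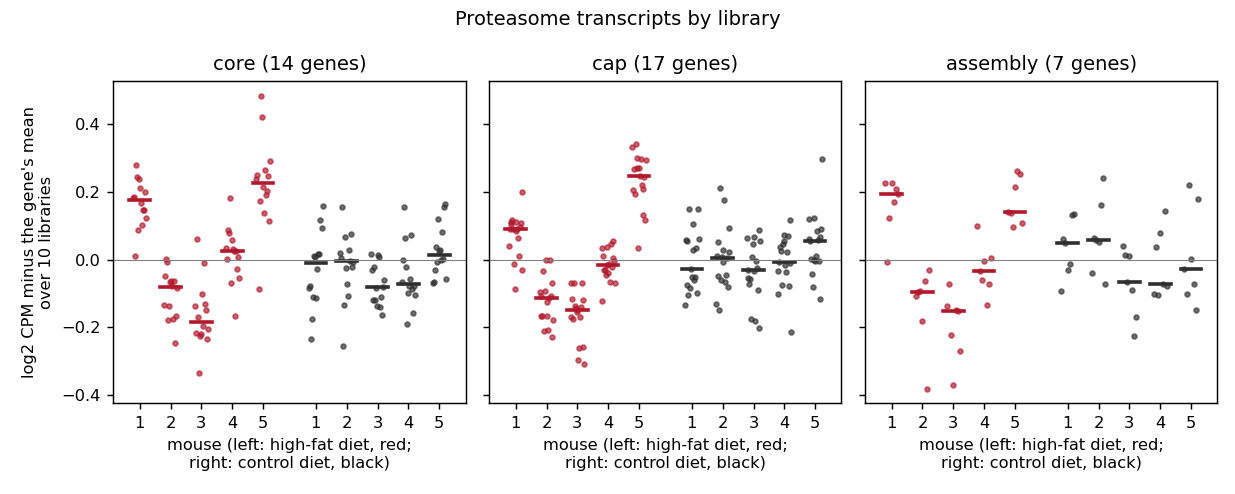
Log2 CPM of each core, cap and assembly gene minus its mean over the 10 libraries, by mouse, with high-fat diet mice left and control mice right in each panel and bars at the class median. In the cap panel the bars of the high-fat diet mice run from -0.15 in mouse 3 to 0.25 in mouse 5, while those of the control mice lie between -0.03 and 0.05.

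Several other measures of the libraries are set beside this, some of which followed the same mice and some of which did not. The chaperonin CCT, a cytosolic folding complex taken as a comparison, had a larger SD on the high-fat diet for 8 of 8 genes and median deviations of 0.10, -0.23, -0.24, -0.06 and 0.29 in high-fat diet mice 1 to 5, against 0.12, 0.19, -0.14, -0.04 and 0.03 in control mice 1 to 5. So the order of the high-fat diet mice was not particular to the proteasome. Of the CCT genes 0 of 8 passed the adjusted threshold in edgeR, with 0 at an unadjusted p under 0.05, 2 positive estimates and a median log2 change of -0.06, against 12.1% and 51.4% of all genes at such a p and with a positive estimate. Cct2 averaged 454 ± 78.8 CPM on the high-fat diet and 482 ± 42.3 CPM on the control diet, Cct3 322 ± 61.3 CPM on the high-fat diet and 299.6 ± 16.9 CPM on the control diet and Cct6a 518 ± 82.9 CPM on the high-fat diet and 556 ± 84.6 CPM on the control diet (SD, n = 5 each). Markers of T and NK cells summed to 2.62, 17.7, 20.1, 8.69 and 2.51 CPM in high-fat diet mice, against 0.637 to 28.9 CPM in control mice, and pan-leukocyte markers to 16.2, 58.0, 54.2, 34.7 and 27.6 CPM, against 23.4 to 219 CPM in control mice. The share of counts in mitochondrially encoded genes was 2.63%, 3.04%, 4.36%, 2.63% and 1.40% in high-fat diet mice, against 1.04% to 2.64% in control mice. Macrophage markers summed to 31.1, 64.1, 33.6, 42.9 and 49.3 CPM in high-fat diet mice 1 to 5, with mouse 3 below mouse 5, and did not follow the order of the proteasome genes. Fibroblast and pericyte markers summed to 1698, 1935, 1557, 1781 and 1051 CPM in those mice, lowest in mouse 5 but higher in mouse 1 than in mouse 3. The leukocyte and T cell sums were thus higher in high-fat diet mice 2 and 3 than in mice 1 and 5. In control mice 1 to 5 the pan-leukocyte sums were 68.6, 23.4, 172, 219 and 33.2 CPM. The median proteasome member there lay at 0.01, 0.01, -0.06, -0.03 and 0.01 log2 units. The part of these sums in the spread of the proteasome genes was not tested.

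Levels between genes were compared per length, as CPM per kb of merged exons over all 10 libraries. The median was 37.2 CPM per kb over the core genes, 57.8 over the cap genes and 16.3 over the assembly factors. The highest levels were those of Psmb2 at 136 CPM per kb, Psmc5 at 116, Psma6 at 112 and Psmb4 at 103. The lowest was that of Psma3 at 2.95, of whose windows 22% are shared with other loci, so reads may have been split or lost. The ratio of Psmb2 to Psma3 was 45.9-fold and rested on Psma3, while within the beta ring the ratio of the highest to the lowest level, Psmb2 to Psmb3, was 8.58-fold. Psmd7 led the non-ATPase subunits of the cap at 77.9 CPM per kb (Psmd3 with the longest coding transcript as length), and Psmg1 the assembly factors at 25.5. Psmf1 stood at 11.5. With the longest protein-coding transcript as the length, the medians were 81.7 CPM per kb for the core, 78.4 for the cap and 22.7 for the assembly factors, so the order of core and cap depended on the length used and the assembly factors were lowest either way.

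**Figure D4:**
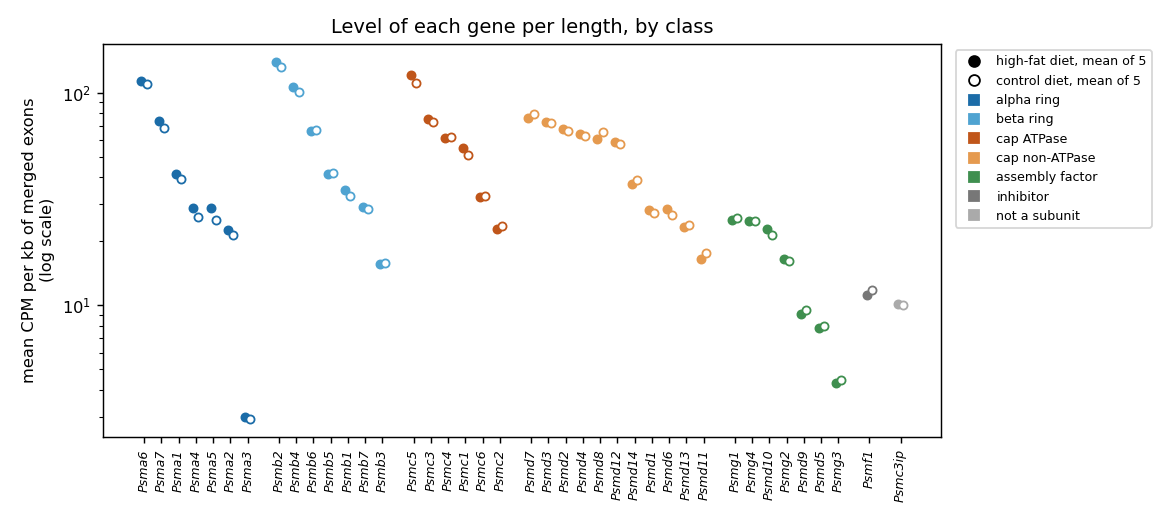
Level of each of the 40 genes in CPM per kb of merged exons, on a log axis, by class, with the high-fat diet mean and the control diet mean for each gene. The means of both diets lie close together for each gene, while the genes range from 2.95 (Psma3) to 136 (Psmb2).

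The immunoproteasome subunits and the activator PA28, which are induced by interferon and exchange with or bind to the constitutive core, were set beside it. Of the 5 genes Psmb8, Psmb9, Psmb10, Psme1 and Psme2, 0 passed the adjusted threshold in edgeR, 1 (Psmb9) had an unadjusted p under 0.05, and all 5 estimates were positive with a median of 0.19, where 12.1% of all genes had an unadjusted p under 0.05 and 51.4% a positive estimate. Psmb9 measured 120, 126, 114, 132 and 116 CPM in high-fat diet mice and 90, 75.3, 112, 114 and 92.8 CPM in control mice. The lowest high-fat diet mouse and the highest control mouse were level at 114 CPM, and Psmb9 overlaps Tap1 on the other strand. The log2 change was 0.33 (SE 0.10, 95% interval 0.10 to 0.55; adjusted p = 0.246 in edgeR). Psmb10 averaged 256 ± 17.1 CPM on the high-fat diet and 218 ± 42.5 CPM on the control diet (SD, n = 5 each; log2 change 0.23, SE 0.12; adjusted p = 0.459 in edgeR), and Psmb8 averaged 252.1 ± 15.6 CPM on the high-fat diet and 248 ± 18.3 CPM on the control diet (log2 change 0.02, SE 0.07; adjusted p = 0.940 in edgeR). In contrast to the constitutive genes, 0 of these 5 had the larger SD on the high-fat diet, with a median SD of 0.0969 on the high-fat diet and 0.216 on the control diet. The difference from the constitutive genes was not tested. Of the PA28 genes, Psme1 averaged 166 ± 10.9 CPM on the high-fat diet and 150 ± 19.7 CPM on the control diet, and Psme2, of whose windows 59% are shared, 33.8 ± 2.34 CPM on the high-fat diet and 29.7 ± 4.49 CPM on the control diet (SD, n = 5 each; adjusted p = 0.551 and 0.510 in edgeR). Leaving out control mice 3 and 4, those highest in macrophage markers, was an alternative added after the data were seen and gave log2 changes of 0.50 for Psmb9 and 0.43 for Psmb10, both past the adjusted threshold in edgeR, as were 1.89% of all genes in that fit.

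Each inducible subunit replaces one constitutive subunit, so their ratio was taken per mouse. Psmb9 over Psmb6 gave log2 ratios of CPM per kb of -1.21, -0.78, -0.85, -0.88 and -1.18 in high-fat diet mice and -1.52, -1.66, -1.03, -1.0 and -1.54 in control mice. The groups overlapped, with 3 of 5 high-fat diet mice above the highest control mouse and 5 of 5 above the control mean. The difference of the log2 ratios was 0.37 (SE 0.17; exact two-sided permutation p = 0.0714, 0.214 adjusted over 3 ratios). Psmb10 over Psmb7 averaged 2.38 ± 0.20 on the high-fat diet and 2.16 ± 0.34 on the control diet, a difference of 0.22 (SE 0.18, n = 5 each; exact permutation p = 0.246, adjusted p = 0.369). Psmb8 over Psmb5 averaged 0.85 ± 0.16 on the high-fat diet and 0.82 ± 0.20 on the control diet, a difference of 0.03 (SE 0.11, n = 5 each; exact permutation p = 0.762, adjusted p = 0.762). The smallest two-sided p that 5 against 5 mice allow is 0.00794. The level of a ratio depends on the gene lengths used, while its difference between the diets does not. Per kb of merged exons Psmb8 over Psmb5 was 1.80-fold and Psmb10 over Psmb7 5.21-fold on the high-fat diet. With the longest protein-coding transcript as the length they were 3.68-fold and 2.14-fold over all 10 libraries, so their order turned. Without control mouse 3 or 4 the Psmb9 over Psmb6 difference was 0.45 and 0.46, each with an exact unadjusted permutation p = 0.0476. Leaving out any other single mouse gave an exact unadjusted permutation p between 0.0635 and 0.143.

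**Figure D5:**
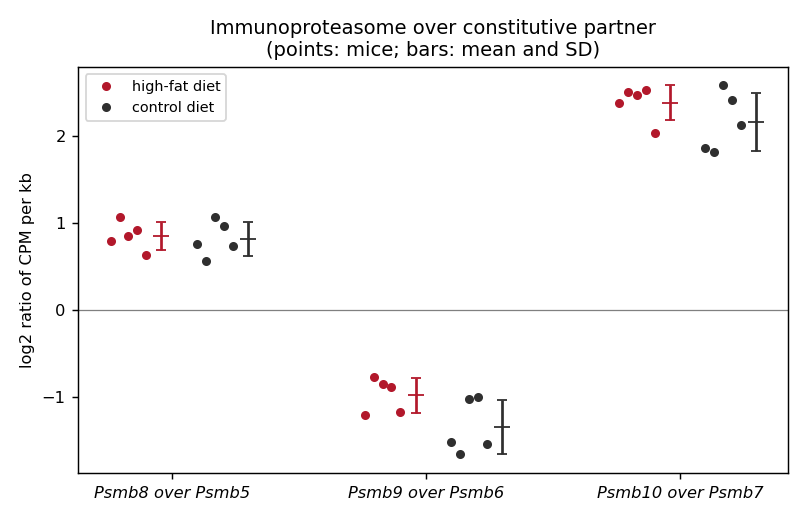
Log2 ratio of CPM per kb of each inducible subunit over the constitutive subunit it replaces, by mouse (points), with mean and SD, high-fat diet left of control diet. For Psmb9 over Psmb6 the high-fat diet mice average -0.98 and the control mice -1.35, with overlapping points.

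Among the regulators of proteasome genes, of 9 genes 0 passed the adjusted threshold in edgeR, 3 had an unadjusted p under 0.05, and 1 estimate was positive, with a median log2 change of -0.10. Of all genes tested 12.1% had an unadjusted p under 0.05 and 51.4% a positive estimate. Nfe2l1, the transcription factor that raises proteasome gene transcription when proteasome activity is impaired, measured 611, 631, 588, 621 and 657 CPM in high-fat diet mice and 789, 741, 639, 621 and 737 CPM in control mice. The groups overlapped at the low end of the control range, and a log2 change of -0.18 (SE 0.08; adjusted p = 0.387 in edgeR). Nfe2l2 (NRF2), its relative in the oxidative stress response, averaged 117 ± 1.72 CPM on the high-fat diet and 134 ± 10.3 CPM on the control diet (SD, n = 5 each; log2 change -0.20, SE 0.06; adjusted p = 0.259 in edgeR). With the macrophage level as a covariate the log2 change was -0.06 for Nfe2l2 and -0.32 for Nfe2l1, neither past the adjusted threshold. Syvn1, a ubiquitin ligase of the endoplasmic reticulum, was the one with a positive estimate, at 195 ± 28.7 CPM on the high-fat diet and 166 ± 16.4 CPM on the control diet (SD, n = 5 each; adjusted p = 0.400 in edgeR).

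Of 11 further subunits and cofactors tested, 0 passed the adjusted threshold in edgeR and 1 had an unadjusted p under 0.05, against 12.1% of all genes. That was Sem1, the small lid subunit, with 97.7 ± 11.8 CPM on the high-fat diet and 82.5 ± 7.78 CPM on the control diet (SD, n = 5 each; log2 change 0.25, SE 0.09; adjusted p = 0.315 in edgeR). Pomp, the chaperone of the beta ring, averaged 114 ± 12.8 CPM on the high-fat diet and 107 ± 5.50 CPM on the control diet (SD, n = 5 each; adjusted p = 0.703 in edgeR). The ubiquitin receptor Adrm1 averaged 32.5 ± 2.76 CPM on the high-fat diet and 32.4 ± 2.6 CPM on the control diet, Ecpas, a scaffold of the particle, 169 ± 14.2 CPM on the high-fat diet and 184 ± 12.9 CPM on the control diet, and Akirin2, a nuclear import factor of the proteasome, 125 ± 13.6 CPM on the high-fat diet and 136 ± 13.3 CPM on the control diet. The activators Psme3, with 401 ± 44.6 CPM on the high-fat diet and 435 ± 23.7 CPM on the control diet, and Psme4, with 207 ± 15.2 CPM on the high-fat diet and 200 ± 5.10 CPM on the control diet, had adjusted p-values of 0.646 and 0.806 in edgeR. Of 14 ubiquitin genes, activating enzymes and shuttle factors 0 passed the adjusted threshold and 0 had an unadjusted p under 0.05, with 4 positive estimates and a median log2 change of -0.02, against 12.1% and 51.4% of all genes at such a p and with a positive estimate. Among them Uba6 averaged 71.3 ± 3.21 CPM on the high-fat diet and 78.3 ± 12.1 CPM on the control diet and Ubqln2 187 ± 12.7 CPM on the high-fat diet and 178 ± 5.17 CPM on the control diet.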

How the data were processed

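The authors deposited raw gene counts, with no normalization, for 10 libraries made with a poly(A) RNA kit (NEBNext Ultra), per the labels' protocols. GRCm38, BWA 0.7.12, cutadapt 1.15, DESeq2 1.24.0 and FastQC 0.11.5 appear, without roles, in the submitters' processing notes. The sources used here do not give the counting program, its strand setting or its handling of multiply mapping reads. Of 53379 genes, 53274 matched the GENCODE M21 annotation without the version. Counts were tested with edgeR 4.0.16 (R 4.3.3; TMM, filterByExpr, robust quasi-likelihood F test, Benjamini-Hochberg over all 14337 genes tested, threshold 0.05). CPM used TMM factors and log2 CPM a prior count of 2. DESeq2 1.42.0, limma 3.58.1 (voom), other filters and scalings, 3 covariate or block fits and leaving out mice were alternatives. The edgeR test was checked on simulated counts with 200 changed genes. Shared sequence was scored on the longest transcript of each gene, coding or not, as the share of 50-base windows found in transcripts of other genes. Genes described by mouse were, per class, the 2 with the smallest p and the 1 with the highest level per kb, plus the catalytic subunits, Psmd4, Psmd14 and Psmf1. For related lists these were preset genes and the 3 with the smallest p. A related gene that this rule names is not reported here. Psmd8 was named after its values were seen. Members, lists and tests were chosen with earlier results of these data known. No 2 libraries agreed within sampling noise (chi-square per degree of freedom at least 8.37).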

Additional observations from a re-analysis of the deposited data

Results flagged for a closer look

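Of 86 gene and group combinations checked for a sample far from its group, 1 was flagged. Psmc1 in high-fat diet mouse 5 stood at 128.7 CPM, while the other high-fat diet mice lay between 95.6 and 105.1 CPM. Chance alone flags about 1 in 20 groups.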

How the results depend on the processing

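The members called stayed at 0 under every alternative run, with 0 at an unadjusted p under 0.05 except 2 without high-fat diet mouse 3. The number of genes called over the whole table was 9, but 53 with no filter, 316 with DESeq2, 5 with limma-voom, 16 with the replicate number as a block, 0 with library size as a covariate, 194 with the macrophage level as a covariate and 276 without control mice 3 and 4, and 1 to 27 on leaving out single mice. Assembly factors with a positive estimate numbered 5 with library size, 1 with the macrophage level and 1 without control mice 3 and 4, and 1 to 5 on leaving out single mice. Those of the cap ranged from 3 to 14, of the core from 9 to 14 and of all members from 13 to 32. The medians on leaving out single mice ranged from -0.03 to 0.07 for all members, 0.03 to 0.12 for the core, -0.04 to 0.05 for the cap and -0.07 to 0.05 for the assembly factors. With the macrophage level they were -0.02, 0.01, -0.03 and -0.06 in the same order of sets. Library size and the macrophage level each overlapped little between the diets, so a fit with either can hardly separate it from diet. Members with the larger SD on the high-fat diet numbered 35 to 39.

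The Psmb9 over Psmb6 difference ranged from 0.29 to 0.46 on leaving out single mice. It was 0.59 without control mice 3 and 4 (exact unadjusted permutation p = 0.0357, the smallest that 5 against 3 mice allow). Those mice were left out after the data were seen and had the highest control ratios, -1.03 and -1.0. On leaving out single mice the range was -0.030 to 0.10 for Psmb8 over Psmb5 and 0.14 to 0.33 for Psmb10 over Psmb7. With the replicate number as a block the exact permutation p for Psmb9 over Psmb6 was 0.0625. This is the smallest two-sided p that 5 pairs allow, so that test could not fall under 0.05. In edgeR with this block 16 genes were called. The numbers do not pair the mice: same-number correlations were 0.225, -0.360, 0.333, -0.0733 and 0.147, and of the high-fat diet mice only mouse 3 matched its own number best.

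Signs of estimates near 0 turned in 31 of 779 values of 41 named genes, none past the threshold. With the macrophage level Psma6 was -0.091 and Psmd4 -0.066. Without control mice 3 and 4 Psma6 was -0.033, Psmb7 -0.011 and Psmd4 -0.022. With library size Psmb8 was -0.048, Psmd14 0.0090 and Psmg1 0.045. On leaving out single mice the ranges were -0.018 to 0.061 for Adrm1, -0.0058 to 0.16 for Cct3, -0.067 to 0.10 for Psma6, -0.071 to 0.056 for Psmb5, -0.076 to 0.027 for Psmb6, -0.037 to 0.088 for Psmb7, -0.022 to 0.057 for Psmb8, -0.14 to 0.0059 for Psmd14, -0.0025 to 0.060 for Psmd4 and -0.087 to 0.052 for Psmg1. Psmb9 was past the threshold with the macrophage level, at 0.66 (edgeR adjusted p = 0.0173), in a fit where that level and diet can hardly be told apart. The causes were not tested.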
